A study of Mus musculus with 2 samples.

Results

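Meox1, Meox2, Tcf15, Foxc1, Foxc2 and Dmrt2 are transcription factors that set up and pattern the somites, and they were taken by gene symbol as 6 of the 27998 genes counted. The cells came from wild type C57BL/6 mouse embryos of embryonic day (E) 9.5 or E11.5, whose inter-limb somites were dissected. Somites of 3 embryos were pooled at each stage into 1 droplet library, in which a unique molecular identifier (UMI) on every captured transcript lets copies of 1 molecule be counted once. After filters on genes and mitochondrial UMIs, the E9.5 library kept 9851 cells (median 12462 UMIs) and the E11.5 library 9595 (median 12479 UMIs). Because each stage is 1 library of pooled embryos, stage and library cannot be told apart, cells are not replicates, and no test between stages was possible. Levels are UMIs of a gene per 1000000 UMIs of a group of cells (UPM), and every range in brackets is an exact 95% interval that covers counting error only. Those of co-detection ratios are too wide, as said where they are given.

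Somites form as epithelial blocks along the neural tube. Each one then splits into the dermomyotome, which carries Pax3 and gives rise to muscle and dermis, and the sclerotome, which carries Pax1 and Pax9 and gives rise to vertebrae and ribs. Meox1 and Meox2 are homeobox factors of paraxial mesoderm that act in both derivatives. Tcf15 (paraxis) is a basic helix-loop-helix factor, needed for somites to become epithelial, that binds DNA with E proteins. Foxc1 and Foxc2 are paralogous forkhead factors of paraxial mesoderm and of blood vessels. Dmrt2 is a DM domain factor of the dermomyotome that acts upstream of Myf5.

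The members lie on different chromosomes of GRCm38 in the GENCODE M21 annotation. Meox1 (ENSMUSG00000001493) is at chr11:101877510-101894374 on the minus strand, opposite the counted antisense gene Gm11551, and Meox2 (ENSMUSG00000036144) is at chr12:37108540-37179534 on the plus strand. Tcf15 (ENSMUSG00000068079) at chr2:152143561-152149097 and Foxc1 (ENSMUSG00000050295) at chr13:31806633-31812476, both on the plus strand, overlap no other gene. Foxc2 (ENSMUSG00000046714) at chr8:121116171-121118895 lies inside the span of Gm20388, a gene counted on the same strand, so its counts are uncertain where a read could belong to either gene. Dmrt2 (ENSMUSG00000048138) is at chr19:25672411-25678991 on the plus strand. Its start lies 157 bases from that of 2610016A17Rik (ENSMUSG00000101089, chr19:25671134-25672253), which is transcribed the other way from the minus strand and overlaps none of the members.

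The stretch between these genes is shown because 2610016A17Rik turned out to have the pattern most like that of Dmrt2. The 140 bases at chr19:25672254-25672393 (GRCm38.p6, plus strand, from the RefSeq promoter sequences) lie outside both genes in GENCODE and RefSeq, with 2610016A17Rik to the left and Dmrt2 to the right. Capitals mark the motif CCAAT.
Dmrt2 and 2610016A17Rik, shared start region: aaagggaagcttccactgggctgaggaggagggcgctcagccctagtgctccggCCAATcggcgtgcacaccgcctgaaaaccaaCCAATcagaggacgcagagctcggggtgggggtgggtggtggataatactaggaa
CCAAT, searched on both strands, occurred 2 times in these letters. Of 32851 promoter windows of the same length and position relative to the start of a gene, 23.6% held it at least 1 time and 5.49% at least 2 times. The E-box CANNTG, found in 45.6% of windows, and TATAAA, found in 7.33%, had no match here on either strand.

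Cells were gated by the marker that names each state, after cells with marker genes of another tissue were set aside. The Pax3 gate (at least 2 Pax3 UMIs, with no Myf5 or En1 UMI and under 2 of Myog and of Pax1 plus Pax9) held 778 cells at E9.5 and 116 at E11.5. The Myf5 gate held 366 and 471 cells, and the Myog gate of differentiating myocytes (at least 2 Myog UMIs) held 25 and 578. The Pax1/Pax9 gate held 1318 and 1573 cells, and the En1 gate, which marks the central dermomyotome and its dermal offspring, held 9 and 975. The gates were exclusive of one another, and 2013 neural tube cells at E9.5 and 154 at E11.5 served as the background class, since neural tube should lack these factors.

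Other genes in the gates matched their names in part. Sox9, a cartilage regulator, had a UMI in 79.9% of Pax1/Pax9-gated cells at E9.5. Nkx3-2, another gene of sclerotome, was rare in that gate. It was found in 11 cells and absent from 1307 at E9.5, and found in 18 and absent from 1555 at E11.5. Myod1 was found in 93.1% of Myog-gated cells at E11.5. The small Pax3 gate of E11.5 was more mixed, as 39.7% of its cells had a Myod1 UMI and 11.2% were called doublets, against 0.257% and 3.98% at E9.5. Sox2, a neural marker, had a UMI in 12.2% of Pax3-gated cells at E9.5 and in 5.17% at E11.5. The 95 Pax3-gated cells with Sox2 at E9.5 had 149 UPM of Meox1 and 150 UPM of Tcf15, against 495 and 391 in the 683 without it. Stage ratios in this gate are given below also without Sox2 or later markers, alternatives chosen after seeing the data.

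At E9.5 all members but Dmrt2 were well above background in each of the 3 large gates. Meox1 reached 456 UPM (444–468) in Pax3-gated, 495 (479–512) in Myf5-gated and 377 (368–386) in Pax1/Pax9-gated cells. Its level in the 25 Myog-gated cells was 336 (288–391). These levels lay close together, and the intervals of the 3 large gates do not overlap. Pax3-gated cells without Sox2 had 495 (482–508), level with the Myf5 gate. The other gates were not filtered for Sox2, here and below.

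Tcf15 followed the same order at E9.5, with 419 UPM (403–434) in Myf5-gated, 364 (354–375) in Pax3-gated and 251 (244–259) in Pax1/Pax9-gated cells. Meox2 differed less, at 119.7 (112–128), 101 (95.6–107) and 98.2 (93.7–103) in the same gates, and the intervals of the last 2 overlap, although Pax3-gated cells without Sox2 were at 110 (104–117). Both were thus found in dermomyotome and sclerotome cells alike.

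The forkhead pair leaned the other way. Foxc1 had 130.1 UPM (125–135) and Foxc2 133 (128–139) in Pax1/Pax9-gated cells at E9.5. In Pax3-gated cells Foxc1 was at 73.6 (68.9–78.5) and Foxc2 at 81.6 (76.7–86.8), and in Myf5-gated cells they were at 86.0 (79.2–93.3) and 72.0 (65.7–78.6). Among the gates, that of sclerotome cells therefore held the highest levels of both, and neither was absent from the muscle progenitors. These are averages over a gate, and a subset of the Pax3 gate described below had 148 UPM of Foxc1 and 222 of Foxc2.

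Dmrt2 differed most between the gates. It stood at 104 UPM (96.3–112) in Myf5-gated and 70.0 (65.4–74.8) in Pax3-gated cells at E9.5, and at 1.56 (1.04–2.25) in Pax1/Pax9-gated cells. The last value comes from 28 UMIs in 1318 cells and is below the 3.75 (3.07–4.53) of neural tube cells, so at this depth no Dmrt2 above background was detectable in that gate. That gate leaves out cells that also met the limits of Pax3, Myf5 or En1. The 49 cells of E9.5 with both Pax3 and Pax1/Pax9 had 30.8 UPM of Dmrt2 (21.5–42.9), and 22.4% of them were called doublets. Pax3-gated cells held 39.5% and Myf5-gated cells 32.0% of all Dmrt2 UMIs of the library.

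At E11.5 the gates came in another order for most members. Meox1 was highest in Pax1/Pax9-gated cells, with 123 UPM (118–128). Myf5-gated cells had 95.6 (89.0–103) and Pax3-gated cells 91.0 (77.8–106), which do not differ beyond their intervals. Myog-gated cells followed with 53.4 (49.1–58.0) and En1-gated cells with 47.8 (44.2–51.6), again with overlapping intervals.

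Tcf15 was highest in the dermomyotome and muscle progenitor gates at E11.5 too. Its level was 169 UPM (160–178) in Myf5-gated and 157 (139–176) in Pax3-gated cells, with overlapping intervals. It was 112 (106–118) in En1-gated, 93.0 (88.8–97.3) in Pax1/Pax9-gated and 66.0 (61.2–71.1) in Myog-gated cells, 3 values that stand apart from one another.

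Among the gates, Meox2 at E11.5 was highest in Pax1/Pax9-gated cells, at 62.7 UPM (59.3–66.2). Cells outside every gate and class were level with these, at 61.5 (59.1–63.9). Pax3-gated cells had 32.0 (24.3–41.2) and En1-gated cells 31.2 (28.3–34.3), whose intervals overlap. Myf5-gated cells had 15.7 (13.1–18.7) and Myog-gated cells 6.08 (4.68–7.76), the lowest of the gates.

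Foxc1 and Foxc2 were highest in the sclerotome gate at E11.5, by a wide margin. Foxc1 stood at 155 UPM (149–160) in Pax1/Pax9-gated cells, against 23.6 (20.4–27.2) in Myf5-gated, 15.9 (13.5–18.5) in Myog-gated, 11.4 (7.04–17.4) in Pax3-gated and 6.94 (5.61–8.48) in En1-gated cells. Foxc2 stood at 64.4 (60.9–68.0) in Pax1/Pax9-gated cells and at 9.10 (7.14–11.4) in Myf5-gated cells, and its values in the Pax3, En1 and Myog gates were 3.25 (1.19–7.07), 2.92 (2.09–3.98) and 1.80 (1.09–2.82). Pax1/Pax9-gated cells held 43.8% of all Foxc1 UMIs and 43.0% of all Foxc2 UMIs of the E11.5 library.

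Dmrt2 at E11.5 had its highest level in Pax3-gated cells, with 110.5 UPM (95.9–127). En1-gated cells had 80.2 (75.5–85.0), and through their number they held 30.3% of the Dmrt2 UMIs of the library. Myf5-gated cells had 35.4 (31.4–39.7), Myog-gated cells 17.5 (15.0–20.2) and Pax1/Pax9-gated cells 10.1 (8.79–11.6). The 9 En1-gated cells of E9.5 gave 114 (66.3–182) for Dmrt2, from 17 UMIs, and are too few for the other members to be read closely.

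**Figure D1:**
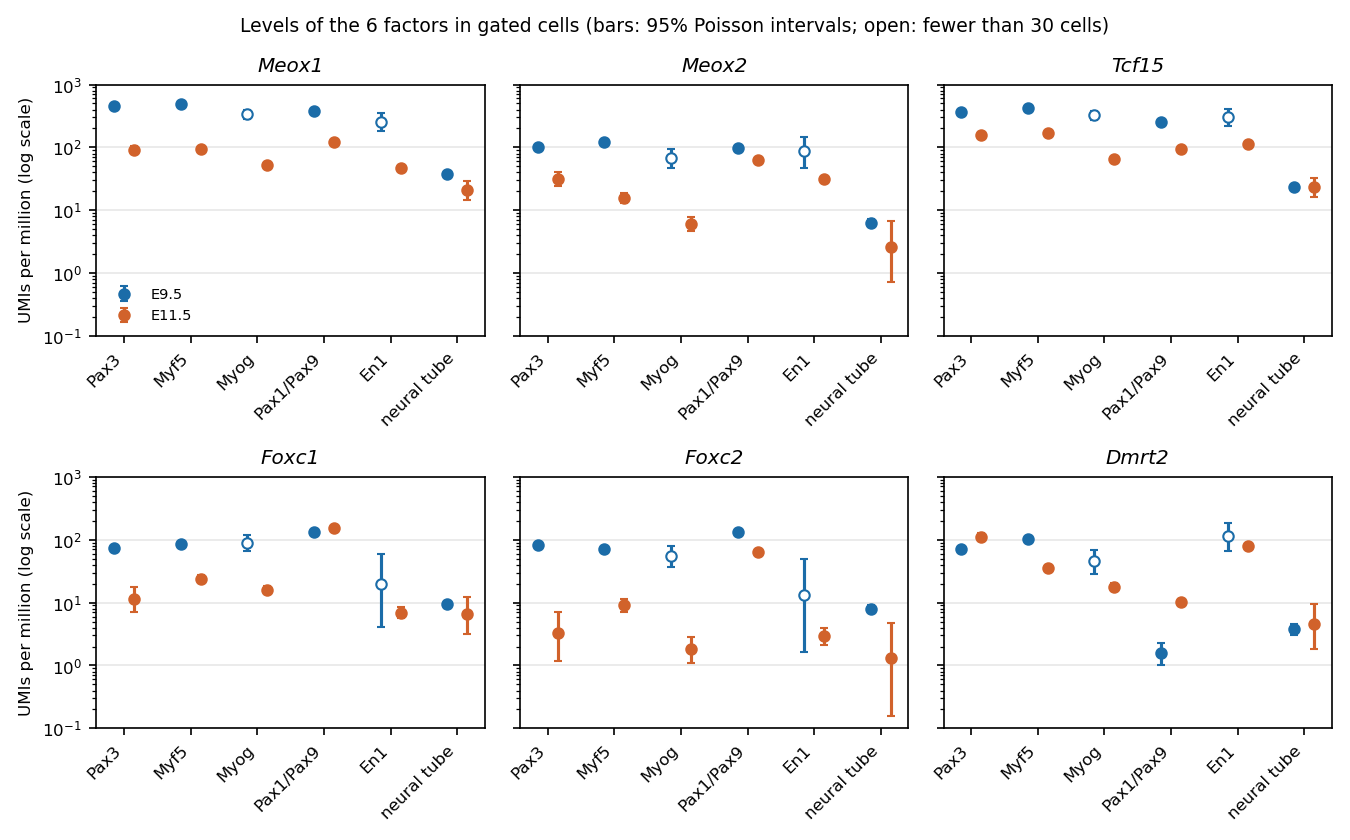
Levels of the 6 factors in the 5 gates and in neural tube cells, in UPM on a log scale, 1 panel per gene; blue points are E9.5, orange points E11.5, bars are 95% Poisson intervals and open points rest on fewer than 30 cells. Orange points lie below blue ones for Meox1 and Tcf15 in every gate, Foxc1 is about as high at both stages in the Pax1/Pax9 gate, and Dmrt2 is low in that gate at both stages.

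The neural tube class gave a background that differed from gene to gene. At E9.5 it was 38.5 UPM (36.2–40.8) for Meox1, 23.6 (21.8–25.4) for Tcf15, 9.36 (8.27–10.6) for Foxc1, 7.99 (6.99–9.10) for Foxc2 and 6.24 (5.36–7.23) for Meox2. These UMIs were unevenly spread: 82 of the 2013 cells had at least 5 Meox1 UMIs and held 60.7% of them. Much of it sat in doublet calls: the 163 neural cells called by Scrublet had 147 UPM of Meox1 (136–160) and the other 1850 cells had 21.5 (19.7–23.4). Without the calls Tcf15 was at 10.8 (9.52–12.2), Foxc1 at 3.40 (2.71–4.21), Foxc2 at 2.998 (2.35–3.76), Meox2 at 2.96 (2.32–3.72) and Dmrt2 at 1.74 (1.26–2.35).

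Against this background the E9.5 gates stood well clear. On the log2 scale, Pax3-gated over neural tube cells gave 3.57 (3.47–3.66) for Meox1, 4.02 (3.79–4.25) for Meox2, 3.95 (3.83–4.07) for Tcf15, 2.98 (2.78–3.18) for Foxc1, 3.35 (3.14–3.57) for Foxc2 and 4.22 (3.93–4.53) for Dmrt2. Dmrt2 in Pax1/Pax9-gated cells was lower than in neural tube cells, by −1.27 (−1.92 to −0.66), and turned to 0.84 where gates were allowed to overlap. With doublet calls left out of both, an alternative added after seeing the data, it was −0.70 (−1.58 to 0.12). The 2 classes then did not differ beyond counting error.

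At E11.5 several members came close to background. The 154 neural cells had 21.0 UPM of Meox1 (14.4–29.7) and 23.7 UPM of Tcf15 (16.6–32.8), from 32 and 36 UMIs. Foxc1 over neural tube was 0.79 (−0.36 to 2.04) on the log2 scale in Pax3-gated and 0.08 (−0.86 to 1.18) in En1-gated cells. Foxc2 was 1.31 (−1.18 to 4.65), 1.15 (−0.80 to 4.25) and 0.46 (−1.59 to 3.6) in the Pax3, En1 and Myog gates, and Meox2 was 1.21 (−0.22 to 3.13) in the Myog gate. Doublet calls bear on these values, since the 147 neural cells without a call had 10.7 UPM of Meox1, 2.14 of Foxc1 and 0.71 of Meox2. With calls left out of the gates too, an alternative added after seeing the data, Foxc1 in Pax3-gated cells was 2.21 (0.40–4.63) over neural tube and Meox2 in Myog-gated cells 2.75 (0.20–8.08), from 3 and 1 neural UMIs. A level above background was not detectable either way for Foxc1 in En1-gated cells and for Foxc2 in the Pax3, En1 and Myog gates. Tcf15 stayed above background in all 5 gates, the lowest ratio being 1.48 (1.00–2.01) in Myog-gated cells, or 2.14 (1.51–2.84) without doublet calls.

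Shares of cells with a UMI were compared after each cell was thinned to 5000 UMIs. Meox1 was found in 86.7% of Myf5-gated, 78.7% of Pax1/Pax9-gated and 75.6% of Pax3-gated cells at E9.5, against 10.2% of neural tube cells. At E11.5 the shares were 32.4%, 30.4% and 36.3%, against 3.70%. Tcf15 went from 81.7% to 49.0% in the Myf5 gate and Foxc2 from 30.3% to 3.89%, while Foxc1 in the Pax1/Pax9 gate was at 47.4% and 42.2%. Without thinning, Meox1 was found in 98.6% of Myf5-gated and 16.8% of neural tube cells at E9.5, whose median depths were 15964 and 11896 UMIs.

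The comparison of stages within a gate asks how levels of the factors differed as somites matured. In Pax3-gated cells 5 of the 6 members were at least 2-fold lower at E11.5, where 6.03% of the 9774 genes with at least 50 UMIs were that much lower and 9.24% that much higher. The log2 ratios of E11.5 over E9.5 were −2.32 (−2.55 to −2.10) for Meox1, −1.66 (−2.06 to −1.28) for Meox2 and −1.21 (−1.39 to −1.04) for Tcf15. The forkhead genes gave −2.69 (−3.39 to −2.07) for Foxc1 and −4.65 (−6.10 to −3.52) for Foxc2. At E11.5 Foxc2 was not detectable above background in this gate, and Foxc1 only without doublet calls, so the sizes of these ratios are uncertain. Only 21 Foxc1 and 6 Foxc2 UMIs were counted in the 116 cells of E11.5, and across the alternatives Foxc1 moved to −1.70 in thinned cells and to −1.99 in overlapping gates, and Foxc2 ranged from −6.08 in cells without a Myod1, Myog, Pax1 or Pax9 UMI to −3.72 in overlapping gates.

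Dmrt2 was the exception in Pax3-gated cells, at 0.66 (0.43–0.88). Its sign depended on the gate: where the Pax3 gate also took cells with Myf5, Myog, En1 or Pax1/Pax9, the ratio was −0.26. In the 725 and 62 Pax3-gated cells without a Myod1, Myog, Pax1 or Pax9 UMI it was 0.86 (0.56–1.14), and in cells without Sox2 0.57 (0.34–0.79).

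The sign also turned within the gate with Pax7, a marker of muscle stem cells that was found in 46 of its cells at E9.5 and 45 at E11.5. In cells with Pax7, Dmrt2 was at 114 UPM (93.1–138) at E9.5 and 71.2 (53.5–92.9) at E11.5, a log2 ratio of −0.68 (−1.18 to −0.19). In cells without it, Dmrt2 was at 66.5 (61.9–71.4) and 138 (117–162), a ratio of 1.05 (0.79–1.31). The higher level at E11.5 thus belonged to the 71 cells without Pax7.

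Meox2 differed in size between the same subsets. With Pax7 it was at 115.1 UPM (94.1–139) at E9.5 and 3.95 (0.82–11.6) at E11.5, the latter from 3 UMIs, a log2 ratio of −4.86 (−7.16 to −3.28). Without Pax7 it was at 100 (94.3–106) and 51.5 (38.9–66.9), a ratio of −0.96 (−1.37 to −0.57). Meox1 had ratios of −2.33 and −2.48 in the 2 subsets and Tcf15 −1.66 and −1.04. In cells without a Myod1, Myog, Pax1 or Pax9 UMI, Meox2 was at −0.92 (−1.38 to −0.49) and Tcf15 at −0.98 (−1.22 to −0.76). Both were short of 2-fold there, unlike in the whole gate.

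In Myf5-gated cells all 6 members were at least 2-fold lower at E11.5, where 4.23% of 10035 genes were that much lower and 10.4% that much higher. Foxc2 gave −2.98 (−3.36 to −2.63) on the log2 scale, Meox2 −2.93 (−3.21 to −2.66) and Meox1 −2.37 (−2.49 to −2.26). Foxc1 at −1.87 (−2.11 to −1.63), Dmrt2 at −1.55 (−1.75 to −1.35) and Tcf15 at −1.31 (−1.40 to −1.21) had smaller ratios. The Tcf15 ratio was the nearest to 0, and the Meox2 ratio moved to −3.52 when Myf5 was required at 2 UMIs or more.

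In Myog-gated cells the 5 members with at least 50 UMIs were all at least 2-fold lower at E11.5, where 5.86% of 9588 genes were that much lower and 15.4% that much higher. The ratios were −2.66 (−2.91 to −2.40) for Meox1, −3.47 (−4.09 to −2.82) for Meox2, −2.30 (−2.54 to −2.04) for Tcf15, −2.49 (−2.97 to −1.98) for Foxc1 and −1.38 (−2.01 to −0.69) for Dmrt2. Foxc2, with 28 and 19 UMIs, gave −4.94 (−5.86 to −4.05), a size that is uncertain since its E11.5 level was not detectable above background. The size of the Meox2 ratio is uncertain too, since its E11.5 level was above background only without doublet calls. All ratios of this gate rest on 25 cells at E9.5. The mix of Myog levels differed too. Of those 25 cells 8 had 20 or more Myog UMIs, against 324 of the 578 later ones. Among cells with 2 to 4, Meox1 was at 367 UPM in the earlier library and 118 in the later. Dmrt2 went the other way there, at 6.55 (1 UMI in 8 cells) and 30.8, while the remaining members were lower in the later library. With 20 or more, every member was lower in the later library. How far this mix sets the gate ratios was not tested.

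In Pax1/Pax9-gated cells 3 of the 6 members were at least 2-fold lower and 1 was at least 2-fold higher at E11.5, where 3.81% of 11587 genes were that much lower and 16.7% that much higher. The median over all these genes was 0.20 on the log2 scale, against 0.01 to 0.03 in the other gates, so each value is to be read relative to it. Meox1 gave −1.62 (−1.69 to −1.56), Tcf15 −1.43 (−1.51 to −1.36), Foxc2 −1.05 (−1.15 to −0.95) and Meox2 −0.65 (−0.75 to −0.54). Foxc1 gave 0.25 (0.17–0.33), an interval that holds the median over all genes. Relative to that median Foxc1 was level in the sclerotome gate and its paralog Foxc2 lower, where both were lower at E11.5 in the other 3 gates.

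Dmrt2 was higher at E11.5 in the Pax1/Pax9 gate, with 206 UMIs against 28, a log2 ratio of 2.70 (2.13–3.32), at a level still 10.9 times under that of Pax3-gated cells. The ratio was 0.86 in overlapping gates and 3.48 in thinned cells, so its size is uncertain while its sign is the same in these alternatives. The E9.5 level was not detectable above background, which also leaves the size uncertain. In other tissues the ratio was 2.59 (0.93–4.36) in endothelial and 3.93 (1.03–9.40) in epithelial cells, from 6 and 1 UMIs at E9.5. Neural tube, neuron and neural crest cells gave 0.30, 0.37 and −0.84, within counting error.

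**Figure D2:**
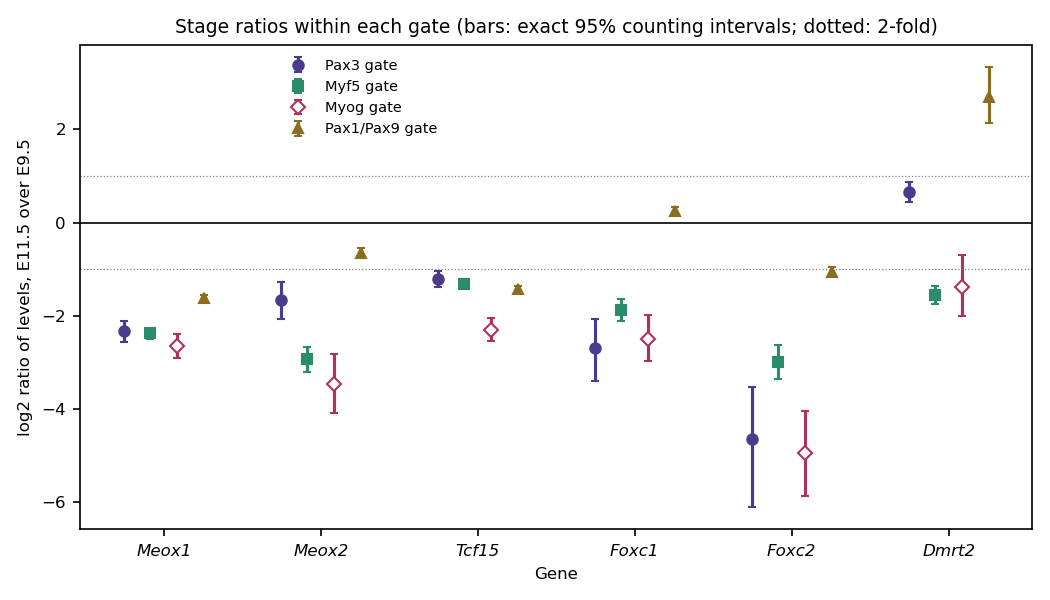
Log2 ratio of the level at E11.5 over that at E9.5 for the 6 factors, with Pax3 (circles), Myf5 (squares), Myog (open diamonds, 25 cells at E9.5) and Pax1/Pax9 (triangles) gates side by side; bars are exact 95% counting intervals and dotted lines mark 2-fold. Meox1, Meox2, Tcf15 and Foxc2 lie below 0 in all 4 gates, whereas Foxc1 is near the median of all genes (0.20) in the Pax1/Pax9 gate, and Dmrt2 is above 0 in the Pax3 and Pax1/Pax9 gates.

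The other somite transcription factors, a list of 31 genes, differed less uniformly between stages. Of the 23 with at least 50 UMIs in Pax3-gated cells, 7 were at least 2-fold lower at E11.5 and 3 at least 2-fold higher, with a median log2 ratio of −0.03, against −1.99 for the members. In Myf5-gated cells 9 of 23 were lower and 3 higher, in Myog-gated cells 4 and 2 of 18, and in Pax1/Pax9-gated cells 6 and 5 of 22. Medians over the list were −0.46, −0.55 and −0.07 in these gates, against −2.12, −2.49 and −0.85 for the members. The list holds Pax1, Pax3 and Pax9, which the gates used. Without these 3 genes, 7 of 22 were lower and 3 higher in Pax3-gated, 7 and 3 of 21 in Myf5-gated, 3 and 2 of 17 in Myog-gated and 5 and 4 of 19 in Pax1/Pax9-gated cells, with medians of 0.09, −0.26, −0.55 and −0.10.

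The factors with the largest ratios in Pax3-gated cells were named by rule. Pax7, which marks muscle stem cells, had a log2 ratio of 3.39, Prrx1, a mesenchymal homeobox factor, 2.31, Zic1, a dorsal zinc finger factor, 1.31, and Twist1, an inhibitor of muscle differentiation, 0.94. On the other side, Ripply2, a repressor that acts as segments form, had no UMI at E11.5 against 210 at the earlier stage, Lbx1, the factor of migrating limb muscle precursors, gave −3.77, and Lef1, the Wnt effector, −3.67. The E proteins that pair with Tcf15 gave 0.21 for Tcf3, 0.69 for Tcf4 and 0.21 for Tcf12, where Tcf15 itself gave −1.21.

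Within the Pax3 gate of E9.5, levels differed with segmentation genes. The list of segmentation genes, which act in presomitic mesoderm and in forming somites, was Tbx6, Mesp1, Mesp2, Ripply1, Ripply2, Dll1, Dll3, Lfng and Msgn1. Tbx6 and Mesp2 were rare in this gate, with 12 and 5 UMIs, against 210 of Ripply2. The 52 cells with at least 2 of the listed genes had 691 UPM of Meox1 and 659 UPM of Tcf15, against 437 and 341 in the other 726 cells. Foxc1 was at 148 against 67.6 and Foxc2 at 222 against 70.3, a log2 ratio of 1.66 (1.43–1.88). Meox2 at 65.9 against 104 and Dmrt2 at 45.4 against 72.0 went the other way, with log2 ratios of −0.66 (−1.05 to −0.29) and −0.67 (−1.15 to −0.22). The share of all genes that differ as much between these subsets was not computed.

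Lbx1, which marks muscle precursors that leave the somite, split the same gate in another way. The 117 cells with Lbx1 had less Meox1 than the 661 without it, 299 against 487 UPM. Tcf15 was at 253 against 386, Foxc1 at 39.0 against 80.4, Foxc2 at 47.7 against 88.3 and Dmrt2 at 35.6 against 76.8. Meox2 was level, at 105.2 against 100.2, a log2 ratio of 0.07 (−0.15 to 0.28).

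Dmrt2 was higher, and the forkhead genes lower, in cells with more Pax3. Over all gates of E9.5 joined together, Dmrt2 stood at 2.88 UPM in 1301 cells with no Pax3 UMI, 42.7 with 1 or 2, 75.1 with 3 to 5 and 102 with 6 or more. Foxc1 stood at 129, 89.6, 81.2 and 75.9 and Foxc2 at 130.0, 105.3, 86.5 and 63.1 in the same bins. The cells without Pax3 are mostly those of the Pax1/Pax9 gate, whose definition limits Pax3. Within the Myf5 gate of E9.5, where no such limit applies, Dmrt2 was at 113 in cells with at least 2 Pax3 UMIs and at 67.2 in cells with none, a log2 ratio of 0.74 (0.24–1.29), and Foxc1 gave −0.06 (−0.52 to 0.42).

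Within the sclerotome gate, Meox1 differed along the segment. Uncx marks the posterior and Tbx18 the anterior part of each somite. At E9.5 Meox1 had 495 UPM in the 234 cells with Uncx alone and 311 in the 327 with Tbx18 alone, a log2 ratio of 0.67 (0.57–0.77), while Meox2, Tcf15, Foxc1 and Foxc2 had ratios between −0.04 and 0.10. At E11.5 the Meox1 ratio was 1.71 (1.51–1.92), from 203 against 62.0, Tcf15 had 1.20 (0.99–1.42), from 136 against 58.9, and Foxc2 0.69 (0.47–0.92). Meox2 at 0.15 (−0.08 to 0.38) and Foxc1 at 0.13 (−0.01 to 0.27) did not differ beyond counting error between them.

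Tendon and cartilage markers went with overlapping sets of members at E11.5. Scx marks tendon progenitors, and the 678 Pax1/Pax9-gated cells with Scx had 195 UPM of Meox1 against 60.7 in the 895 without it, a log2 ratio of 1.68 (1.55–1.81). Tcf15 was at 137 against 55.4, a ratio of 1.31 (1.17–1.45), and Meox2 at 77.7 against 49.8. Foxc1 did not follow Scx, at 152 against 157, a ratio of −0.05 (−0.15 to 0.05).

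Sox9 went with the forkhead genes most, and with Meox1 and Meox2 too. Foxc1 was at 191 UPM in the 1120 Pax1/Pax9-gated cells with Sox9 and at 60.6 in the 453 without it, and Foxc2 was at 80.7 against 22.7, log2 ratios of 1.66 (1.50–1.82) and 1.83 (1.57–2.10). Meox1 was at 144 against 69.1 and Meox2 at 73.1 against 36.1, ratios of 1.05 (0.90–1.21) and 1.02 (0.80–1.24), and Tcf15 gave 0.50 (0.34–0.66). Dmrt2 was at 4.93 against 23.4, a ratio of −2.25 (−2.68 to −1.82), so Dmrt2 in this gate was higher in cells without Sox9. At E9.5 the Sox9 ratio was 0.34 (0.17–0.51) for Foxc1, 0.14 (−0.01 to 0.30) for Foxc2, −0.07 (−0.16 to 0.02) for Meox1 and −0.18 (−0.29 to −0.07) for Tcf15.

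In myocytes of E11.5, Meox1, Tcf15 and Dmrt2 were lower where Myog was higher. The share of all genes that were lower in such cells was not computed. Meox1 stood at 118 UPM in 124 cells with 2 to 4 Myog UMIs, 87.1 in 130 cells with 5 to 19 and 22.6 in 324 cells with 20 or more. Tcf15 stood at 121, 113 and 33.5 and Dmrt2 at 30.8, 29.2 and 9.51 in the same bins. Foxc1 went the other way, at 9.01, 15.7 and 17.9, a log2 ratio of the last bin over the first of 0.99 (0.25–1.82), against −2.39 (−2.70 to −2.08) for Meox1. The Foxc1 levels are low, and the first lies within the 6.57 (3.15–12.1) of neural tube cells. In the Myog gate of E9.5 the same Foxc1 ratio was −1.57 (−2.87 to −0.39), from 8 cells in each of these bins.

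In the En1 gate of E11.5, Twist2, a marker of dermal fibroblast precursors, went with lower levels of the mesodermal factors. Meox1 was at 32.0 UPM in the 534 cells with Twist2 and 70.6 in the 441 without it, Tcf15 at 78.2 against 161 and Meox2 at 20.6 against 46.3. Dmrt2 differed little, at 75.6 against 86.8, a log2 ratio of −0.20 (−0.37 to −0.02). The 112 En1-gated cells that still had at least 2 Pax3 UMIs had 215 UPM of Tcf15, against 92.7 in the 783 with none.

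**Figure D3:**
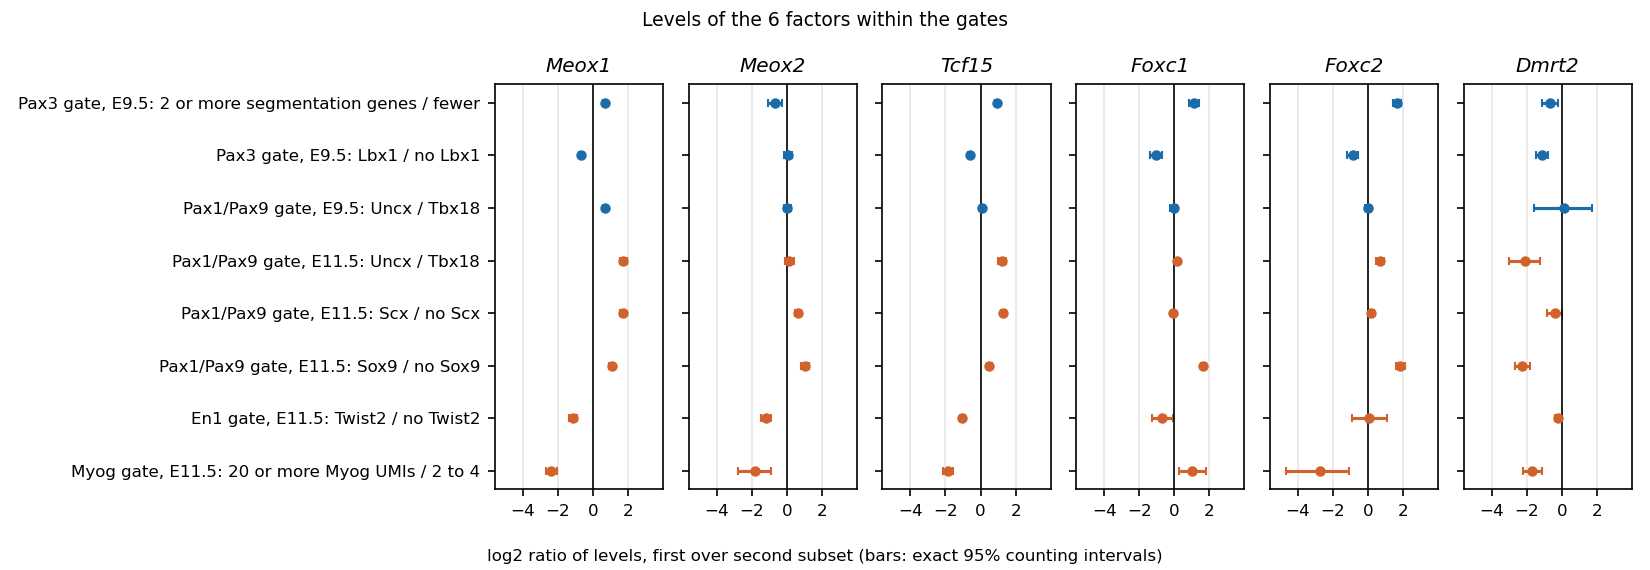
Log2 ratio of levels between subsets of a gate for the 6 factors, 1 panel per gene and 1 row per split; blue is E9.5, orange E11.5, and bars are exact 95% counting intervals. At E11.5 all members but Dmrt2 stand to the right for Sox9, Foxc1 and Foxc2 farthest, while Dmrt2 stands to the left. Meox1 and Tcf15 stand to the right for Scx and Uncx at E11.5 and, with Foxc1 and Foxc2, for segmentation genes.

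Most gated cells had UMIs of at least 2 of the factors at E9.5 and of 1 or none at E11.5 once depth was made equal. Thinned to 5000 UMIs, 0.83% of Myf5-gated cells at E9.5 had none of the 6 factors and 30.8% had 3, the commonest number. At E11.5, 23.3% had none and 48.6% had 1. In the Pax1/Pax9 gate, cells with none went from 1.77% to 26.3%, and in Myog-gated cells of E11.5 they made up 57.6%. In the Pax3 gate they were 11.9% at E9.5 and 23.9% at E11.5, an order that turned without thinning, at 10.3% and 6.90%. Of the 80 Pax3-gated cells of E9.5 with none of the factors at full depth, 75.0% had a Sox2 UMI, against 5.01% of the other 698, and 0 had an Lbx1 UMI.

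**Figure D4:**
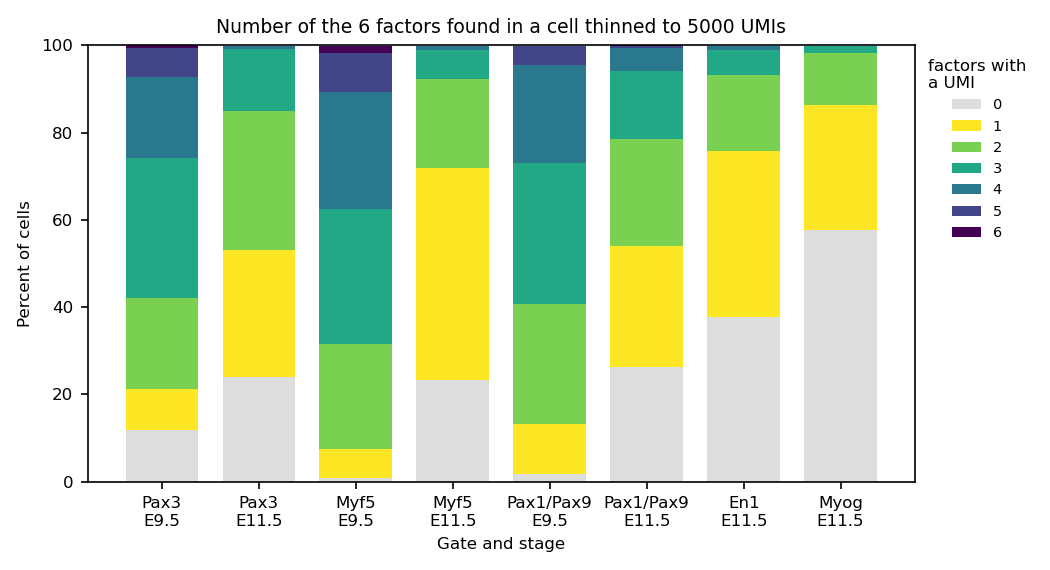
Percent of cells (thinned to 5000 UMIs) in which 0 to 6 of the factors had a UMI, as stacked bars for each gate and stage. Cells without any of them are 0.83% of the E9.5 Myf5 gate and 57.6% of the E11.5 Myog gate, and most E9.5 bars are made up of cells with 2 to 4.

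Some pairs of members met in the same cells more often than their single shares would give. In thinned Pax1/Pax9-gated cells of E11.5, Meox1 and Tcf15 met in 228 cells where 138 were awaited from the 2 shares, a ratio of 1.65 (1.45–1.88), Meox2 and Tcf15 had 1.56 (1.31–1.85), Meox1 and Meox2 1.50 (1.26–1.78), and Foxc1 and Foxc2 1.47 (1.28–1.67). Foxc1 and Dmrt2 met in 5 cells where 18.6 were awaited, a ratio of 0.27 (0.09–0.63). In the same gate at E9.5 the first 4 pairs had ratios of 1.01, 0.99, 1.07 and 1.06, and their intervals all include 1. All intervals of co-detection treat the shared cells as a Poisson count and the awaited number as fixed. They are too wide, most of all where detection is common. An interval that includes 1 therefore does not show that a pair met no more often than awaited. Wide detection capped the E9.5 ratios at 1.27 for pairs with Meox1 and 1.51 for Meox2 with Tcf15. The forkhead pair could have reached 2.11, so the stages cannot be compared for the first 3. In other gates of E11.5, Meox1 with Tcf15 gave 1.50 (1.20–1.87) in En1-gated and 1.82 (1.32–2.44) in Myog-gated cells, and 1.07 (0.85–1.34) in Myf5-gated and 1.26 (0.78–1.92) in Pax3-gated cells, where the intervals include 1. In Pax3-gated cells of E9.5, Meox1 gave 1.15 (1.04–1.26) with Tcf15 and 1.20 (1.04–1.38) with Foxc2. Meox2 with Foxc2 gave 0.92 (0.73–1.16) there, and all other pairs of that gate lay between 1.10 and 1.24. Cells with none of the factors made up 11.9% of it, and their part in these ratios was not tested. In Myf5-gated cells of E9.5, Meox1 with Tcf15 gave 1.01 (0.89–1.14).

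Outside the gates, Foxc1, Foxc2 and Tcf15 appeared in endothelial cells. At E9.5 the 311 endothelial cells had 35.7 UPM of Foxc1, 46.7 of Foxc2 and 45.9 of Tcf15. At E11.5 the 74 endothelial cells had 44.2 UPM of Foxc1 and 12.0 of Foxc2, and Tcf15 was at 141, a log2 ratio to E9.5 of 1.61 (1.32–1.90), whereas it was below 0 in the 4 gates compared. Meox1 was found in cells with intermediate mesoderm markers at E9.5, at 200.8 UPM, as was Foxc1 at 103, and Meox1 in neural crest cells at 90.1. The lateral plate and intermediate mesoderm lists picked out other tissue at E11.5 (Foxf1 in 0.701% of cells of the former against 35.9% at E9.5, Pax8 in 4.87% of the latter against 60.0%), so their stages were not compared.

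Over the 30 gates and classes of both stages, the patterns of the members were most like one another or like a neighbour. Likeness was Pearson's r of log2(UPM + 1) over 10971 genes with at least 500 UMIs, given as a description, since classes of 1 library share depth and free RNA. Meox1 was most like Meox2 (r = 0.90), Ptgis and Car14. Meox2 was most like Tcf15 (0.90), Meox1 and Wnt16, and Tcf15 was most like Meox2, Meox1 (0.83) and Fbn2. Foxc1 and Foxc2 were most like each other (0.90), followed by Cxcl12 and Meox1 for Foxc1 and by Saa2 and Cxcl12 for Foxc2. Over the 27 classes of at least 20 cells, an alternative added after seeing the data, Col13a1 came first for Tcf15 (0.88), ahead of Meox2.

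Dmrt2 was most like its divergent neighbour 2610016A17Rik (r = 0.95), followed by Grem1 (0.87), a BMP inhibitor, and Lrig1 (0.80). Over the 27 larger classes the neighbour stayed first at 0.94. At E9.5 it had 56.0 UPM (50.5–61.9) in Myf5-gated, 33.5 (30.3–36.8) in Pax3-gated and 1.67 (1.13–2.38) in Pax1/Pax9-gated cells, beside 104, 70.0 and 1.56 for Dmrt2. At E11.5 it had 28.7 (21.5–37.6) in Pax3-gated, 28.5 (25.7–31.4) in En1-gated and 14.8 (12.2–17.6) in Myf5-gated cells, beside 110.5, 80.2 and 35.4. The gates thus came in nearly the same order for both genes.

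The neighbour did not follow Dmrt2 everywhere. From E9.5 to E11.5 its log2 ratio was −1.92 (−2.23 to −1.62) in the Myf5 gate, near that of Dmrt2, and 1.02 (0.38–1.69) in the Pax1/Pax9 gate, where Dmrt2 gave 2.70. In the Pax3 gate it gave −0.22 (−0.66 to 0.19) where Dmrt2 gave 0.66. In thinned cells both genes met in 48 Pax3-gated cells of E9.5 where 24.4 were awaited, a ratio of 1.97 (1.45–2.61), and in 77 En1-gated cells of E11.5 where 37.8 were awaited, a ratio of 2.03 (1.61–2.54). The ratio was 2.42 (1.16–4.45) in Myf5-gated cells of E11.5, and its interval included 1 in Myf5-gated cells of E9.5, at 1.32 (0.93–1.82), and in Pax3-gated cells of E11.5, at 0.96 (0.31–2.24). These intervals are too wide, as for the pairs of members. In the last 2 gates it therefore stays undecided whether the genes met more often than awaited. The RefSeq stretch printed above separates the starts of these genes, and its role was not tested.

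**Figure D5:**
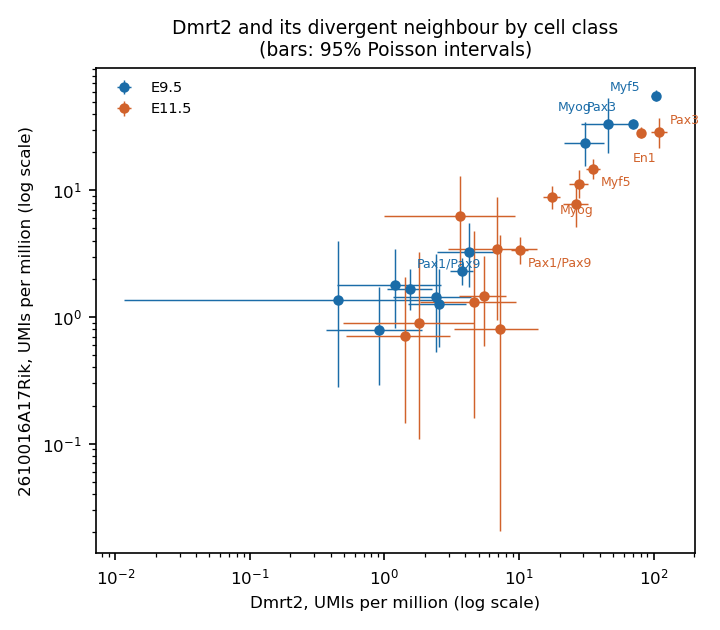
Level of 2610016A17Rik against that of Dmrt2, both in UPM on log scales, with 1 point per gate or class of at least 20 cells in which both genes had a UMI (blue E9.5, orange E11.5, bars 95% Poisson intervals). Pax3, Myf5 and En1 gates lie at the upper right and the Pax1/Pax9 gate of E9.5 at the lower left.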

How the data were processed

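Dissociated inter-limb somite cells were captured on the 10x Genomics platform and aligned to mm10 with Cell Ranger 3.0.1, according to the methods of the authors. The deposited values are raw UMI counts per gene and barcode, as the authors' Cell Ranger run gave them, without normalization. There were 10121 barcodes with 149368952 UMIs at E9.5 and 10167 with 136655763 at E11.5, and 30 barcode sequences occur in both libraries.

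Cells with at least 200 and under 6500 genes and under 15% mitochondrial UMIs were kept, which removed 270 and 572 barcodes. Doublets were limited only by the gene cap; Scrublet (scanpy 1.11.5) called 6.75% and 4.00% of barcodes, which were left out in an alternative. Gates needed 2 UMIs of Pax3, Myog or Pax1 plus Pax9, and 1 of Myf5 or En1. Cells with Myog, Myf5 or En1 together with Pax1/Pax9 (70 and 133) were left out, and the 49 and 2 cells with Pax3 and Pax1/Pax9 formed a class of their own. Neural tube cells had at least 3 of 9 marker genes.

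Levels were UMIs summed over cells per 1000000 UMIs, with exact Poisson intervals. Log2 ratios had exact conditional binomial intervals, and shares and co-detection were computed in cells thinned to 5000 UMIs. Co-detection ratios had Poisson intervals of the shared count with the awaited number taken as fixed, which are too wide. Changes of 2-fold were counted among genes with at least 50 UMIs in both stages together. The calculations were tested on simulated data. The members, gene lists and tests were chosen with earlier results of these data known. Genes named are the members, the 3 most like each of them, the 4 other somite factors with the largest ratios each way in the Pax3 gate, and markers, of which some are not reported here; 2610016A17Rik was studied further after its values were seen. The alternatives were at least 1000 genes per cell, removal of doublet calls, stricter and overlapping gates, cells with markers of other tissues kept, equal weight per cell, thinned cells and a red blood cell background. Pax3 gates from 1 UMI, without Sox2 or without later markers, likeness over classes of at least 20 cells, neural tube levels without doublet calls and the list of factors without Pax1, Pax3 and Pax9 were added after seeing the data. Python 3.11.15, numpy 2.4.6, scipy 1.17.1, pandas 2.3.3 and matplotlib 3.10.9 were used.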

Additional observations from a re-analysis of the deposited data

Results flagged for a closer look

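The stage ratio of Foxc1 differed in sign between gates, with log2 values of −2.69 in Pax3-gated, −1.87 in Myf5-gated and −2.49 in Myog-gated cells and 0.25 in Pax1/Pax9-gated cells, where the median over all genes was 0.20. That of Dmrt2 was 0.66 in Pax3-gated and 2.70 in Pax1/Pax9-gated cells but −1.55 in Myf5-gated and −1.38 in Myog-gated cells. With 1 library per stage these differences between gates were not tested.

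Cells outside every gate and class, 2735 at E9.5 and 3703 at E11.5, were set beside the gates only for Meox2 at E11.5. They held levels above those of neural tube cells. In UMIs per 1000000 UMIs (UPM), Meox1 was at 255 at E9.5 and 114 at E11.5, Meox2 at 47.5 and 61.5, and Tcf15 at 122 and 128. Foxc1 was at 82.1 and 65.2, Foxc2 at 75.0 and 30.3, and Dmrt2 at 6.40 and 29.2. At E11.5 these cells held 52.2% of all Meox2, 44.7% of all Meox1 and 41.1% of all Tcf15 UMIs of the library, against 22.2%, 25.0% and 18.5% at E9.5. They were also a larger part of the library at E11.5. Of the UMIs of all genes in kept cells they held 41730010 of 129754245 at E11.5 and 28916825 of 139643320 at E9.5. The marker lists used here do not say what these cells are.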

How the results depend on the processing

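None of the 18 stage ratios in the Pax3, Myf5 and Pax1/Pax9 gates changed with at least 1000 genes per cell or, added after seeing the data, with the Pax3 gate from 1 UMI or without Sox2 UMIs (6 of them each), by more than their counting intervals. Dmrt2 in Pax3-gated cells, at −0.26 in overlapping gates, was the only one to change sign in any alternative. The values that left their intervals, as log2 of E11.5 over E9.5, are these. Without doublet calls Meox1 was −2.57 in the Pax3 gate. In the Pax3 gate without Myod1, Myog, Pax1 or Pax9 UMIs, also added after seeing the data, Meox2 was −0.92 and Tcf15 −0.98. In overlapping gates Foxc1 was −1.99 in the Pax3 gate, Tcf15 −1.58 in the Myf5 gate, and Meox1 −1.70 and Dmrt2 0.86 in the Pax1/Pax9 gate. In stricter gates Meox2 was −2.19 and Dmrt2 0.40 in the Pax3 gate, Meox1 −2.20, Meox2 −3.52, Foxc1 −2.13 and Dmrt2 −1.90 in the Myf5 gate, and Tcf15 −1.52 and Foxc2 −0.94 in the Pax1/Pax9 gate. With cells of other tissue markers kept, Meox1 was −1.55, Tcf15 −1.33 and Foxc1 0.33 in the Pax1/Pax9 gate. With equal weight per cell, Meox2 was −0.78, Tcf15 −1.54 and Foxc1 0.33 in that gate. In thinned cells Tcf15 was −1.50 and Foxc1 −1.70 in the Pax3 gate, Meox2 −3.32 and Foxc1 −1.55 in the Myf5 gate, and Meox2 −0.93, Tcf15 −1.53 and Dmrt2 3.48 in the Pax1/Pax9 gate. Another 90 ratios were between gates, over neural tube cells or of stages in the Myog gate. With cells of other tissue markers kept, 49 stayed within their intervals and 13 changed sign. Without doublet calls these counts were 51 and 2, in overlapping gates 72 and 5, and in thinned cells 54 and 3. With equal weight per cell they were 67 and 1, and in stricter gates 83 and 3. Against red blood cells, 13 of 45 stayed and 1 changed sign. Among those at least 2-fold apart beyond counting error, Dmrt2 in Pax1/Pax9-gated over neural tube cells at E9.5 turned to 0.84 in overlapping gates. Meox2 in Myf5-gated over Pax3-gated cells at E11.5 turned to 0.13 with cells of other tissue markers kept. The causes were not tested.

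No paired analysis was possible because each stage has 1 library. The E11.5 Pax3 gate (116 cells), the E9.5 Myog gate (25) and the E9.5 En1 gate (9) limit what depth can show there, and variation between embryos was not measured.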
